A study of Mus musculus with 6 samples.

Results

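The semaphorins, ephrins, slits, netrins and reelin are guidance cues, and the plexins, neuropilins, Eph receptors, robos, Unc5 proteins and Dcc are the receptors that read them. Their genes were examined here in embryonic mouse lenses of a conditional knockout of Prox1, a homeodomain transcription factor gene needed for lens fibre cells to elongate. The genes were chosen by name: those whose symbol is Sema, Plxn, Efn, Eph, Slit, Robo, Ntn or Unc5 followed by digits and the letters a to d, together with Nrp1, Nrp2, Dcc and Reln. In this way 65 of the 41128 features of the tables were matched, and 62 of them had 10 or more counts in at least 3 of the 6 libraries. Sema6c was left out because its name stands in the tables in 2 spellings whose values are mixed. The letters also match Unc50, a gene for a Golgi protein that has no part in guidance, so 61 of the 62 are guidance genes. They miss 5 semaphorins (Sema3e, Sema3f, Sema3g, Sema4f and Sema4g), which are described beside the others and are not in the counts unless that is said.

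RNA was sequenced from lenses of mouse embryos at stage E13.5, in 3 libraries of each of 2 groups, and each library was made from a pool of 30 lenses. The knockout group was Prox1 f/f MLR10Cre+, that is, both Prox1 alleles were floxed and a Cre transgene named MLR10 was present. The control group was wild type with neither, and the labels give both groups the strain C57Bl/6. The promoter of MLR10 Cre is a modified alpha A crystallin promoter that is active in lens epithelium and lens fibre cells. With no group that carried Cre alone or floxed alleles alone, effects of the transgene and of Prox1 loss cannot be told apart. The labels name the pools biological replicates and do not say how litters were shared among them, so a p-value here reflects how much these pools vary, which may be technical. In pooled tissue, fewer cells of a type and less RNA per cell cannot be told apart either.

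Guidance cues reach other cells by diffusion or by contact, and steer axons, migrating cells and vessels. Ephrins are held in the cell membrane and signal to Eph receptors on a neighbouring cell and also back into their own cell. Class 3 semaphorins are secreted and bind neuropilins with plexins, whereas semaphorins of classes 4 to 7 are mostly bound to the membrane and bind plexins directly. Slits bind robos, netrins bind Dcc and the Unc5 receptors, and reelin binds the lipoprotein receptors Vldlr and Lrp8. In the lens, Epha2 and Efna5 are the best known of these genes: loss of either gives lens defects in mice, and Epha2 protein is needed for the regular packing of fibre cells.

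The libraries held 9082219 to 28391662 counts, the knockout libraries 2 and 3 being the shallowest with 10907877 and 9082219. Prox1 stood at 651, 728 and 707 CPM (the count relative to the library's total, scaled by the trimmed mean of M values, TMM) in knockout libraries 1, 2 and 3 and at 922, 1215 and 1246 CPM in wild type libraries 1, 2 and 3. It thus fell 1.62-fold in the pools (log2 change -0.70, SE 0.141, edgeR adjusted p = 0.00740) and the groups did not overlap. The tissue checked as lens: the 16 crystallin genes held 2.83% to 3.14% of the counts of a knockout library. In wild type libraries 1, 2 and 3 they held 13.2%, 21.5% and 22.7%, so library 1 lay apart from the other wild type libraries. Lens epithelium markers, 10 genes such as Foxe3 and Pax6, summed to 5004 to 5488 CPM in the knockout and 6077 to 6676 CPM in the wild type. Of the 10, 5 rose and 3 fell, against 15.9% and 16.8% of all features.

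Guidance genes rose far more often than they fell. Of the 62 genes, 26 rose, 3 fell and 33 were not called in the knockout by the edgeR quasi-likelihood test (adjusted p below 0.05 over all 14271 features tested). That is 46.8% called, against 32.6% of all features. The rising genes were 41.9% of the set, where 15.9% of all features rose, and the falling genes were 4.84%, where 16.8% of all features fell. The median log2 change was 0.53 in the set and 0.04 over all features, and 52 of the 62 changes were above 0, against 53.2% of all features. The change was at least 2-fold in 12 of the rising genes and 1 of the falling, against 5.86% and 5.11% of all features. In 33 genes every knockout library lay above every wild type library (24.4% of all features), in 3 every knockout library lay below (25.7%), and in 26 the groups overlapped, where 50.1% of all features had no overlap. An unadjusted p below 0.05 was reached by 38 genes, against 45.3% of all features.

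The counts depended on the libraries and on the scaling. Without wild type library 2 there were 15 rising genes and 1 falling (5.72% and 9.8% of all features), and without wild type library 3 there were 17 and 1 (6.53% and 10.5%). Without knockout library 3 there were 20 and 4 (11.9% and 14.2%), and without knockout library 3 and wild type library 1 together, a choice made after seeing the data, 28 and 4 (17.7% and 19.6%). Scaling by library totals alone moves the median of all features up by 0.35 on the log2 scale and gave 46 rising genes and 1 falling (38% and 6.62% of all features). The call held in all 17 alternative settings for 16 of the 29 called genes: Efna2, Efna4, Efna5, Efnb1, Epha5, Epha10, Ephb4, Plxnb1, Plxnc1, Reln, Sema4b, Sema4d, Sema6a, Slit2, Unc5c and, falling, Robo3.

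**Figure D1:**
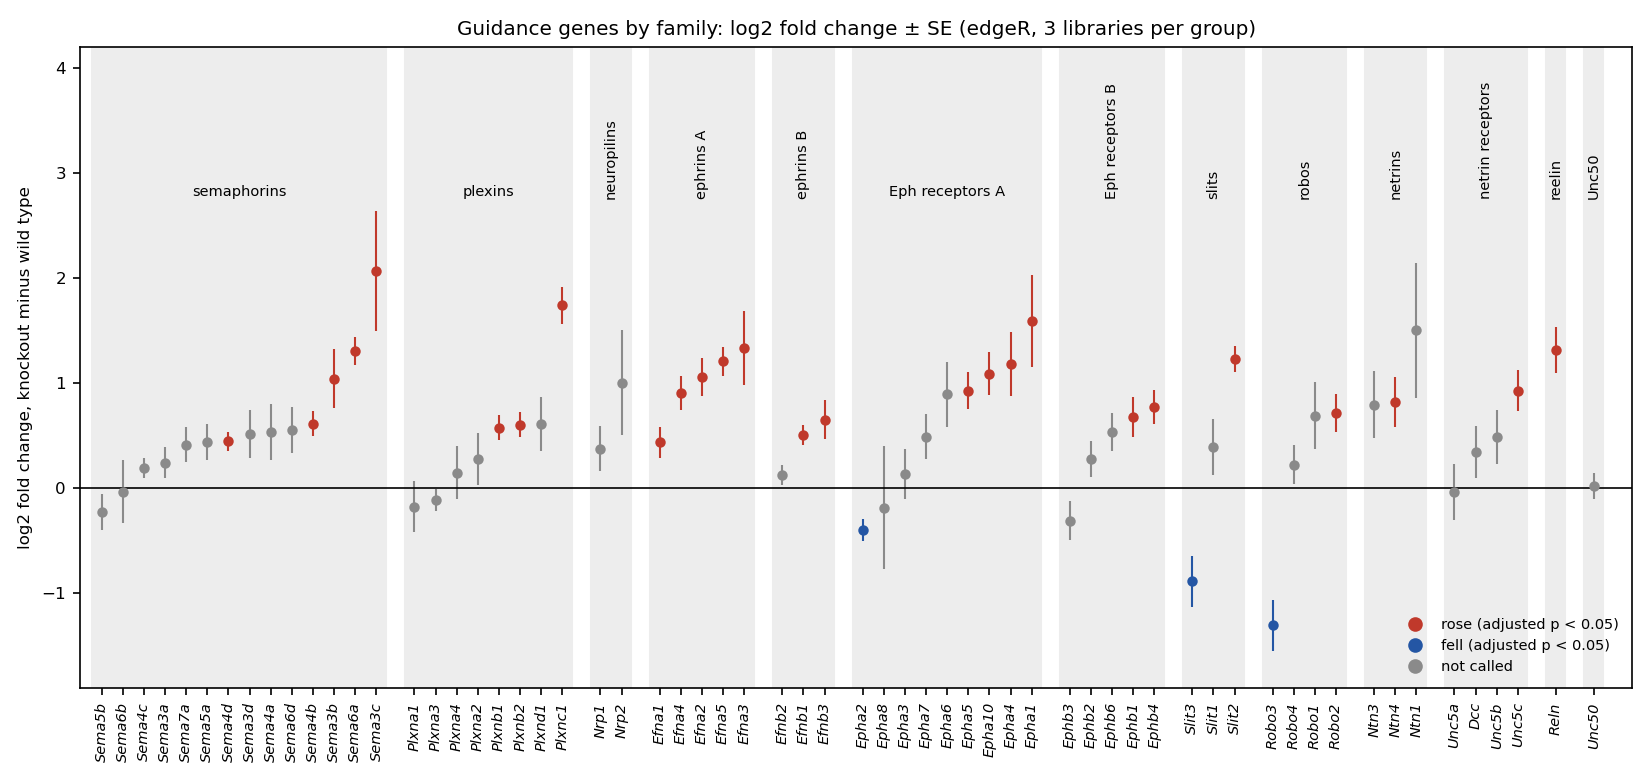
Log2 fold change of each of the 62 genes, knockout minus wild type, grouped by family on the horizontal axis; points are the edgeR estimates, bars the standard error, 3 libraries per group, and colours mark genes that rose, fell or were not called. The 5 ephrin A genes are all above 0 and called, and the called genes below 0 are Epha2, Slit3 and Robo3.

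By role, 15 of 29 ligand genes rose and 1 fell (median log2 change 0.56), and 11 of 32 receptor genes rose and 2 fell (median 0.51). Of the 8 ephrin genes 7 rose and Efnb2 was not called, with a median log2 change of 0.78. Among receptors, 6 of 14 Eph genes, 3 of 8 plexins, 1 of 4 robos and 1 of 4 netrin receptors rose, and neither neuropilin was called. Over all features 15.9% rose and 16.8% fell, and a family of 4 genes is too small to set against those shares. These are descriptions of the families, and differences between families were not tested.

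Of the 5 guidance genes of highest level in the wild type lens, 4 encode ligands, and 3 of the 5 were not called by edgeR. Levels of different genes can be set side by side only per length, so the deposited RPKM was used for this. The highest wild type level was that of Efnb2, at 79.5 ± 10.5 RPKM (SD, n = 3), followed by Sema3a at 38.3 ± 2.11, Sema5a at 36.8 ± 0.446, Plxnb2 at 32.6 ± 3.74 and Efna5 at 24.1 ± 3.69. The level of Efnb2 lay above that of Sema3a in every library, whereas the ranges of Sema3a and Sema5a overlapped, and so did those of Sema3a and Plxnb2. Efnb2, an ephrin that also marks arteries, had 403, 371 and 386 CPM in the wild type and 412, 452 and 401 CPM in the knockout libraries, and its log2 change of 0.12 (SE 0.0985) was not called. Sema3a, a secreted repellent of axons, had 238, 310 and 298 CPM in the wild type and 289, 396 and 316 CPM in the knockout, with overlapping groups and no call (log2 change 0.24). Sema5a, not called by edgeR (adjusted p = 0.0837), was called by DESeq2 and with the replicate block (0.0444 and 0.0428). The other two, Plxnb2 and Efna5, rose.

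**Figure D2:**
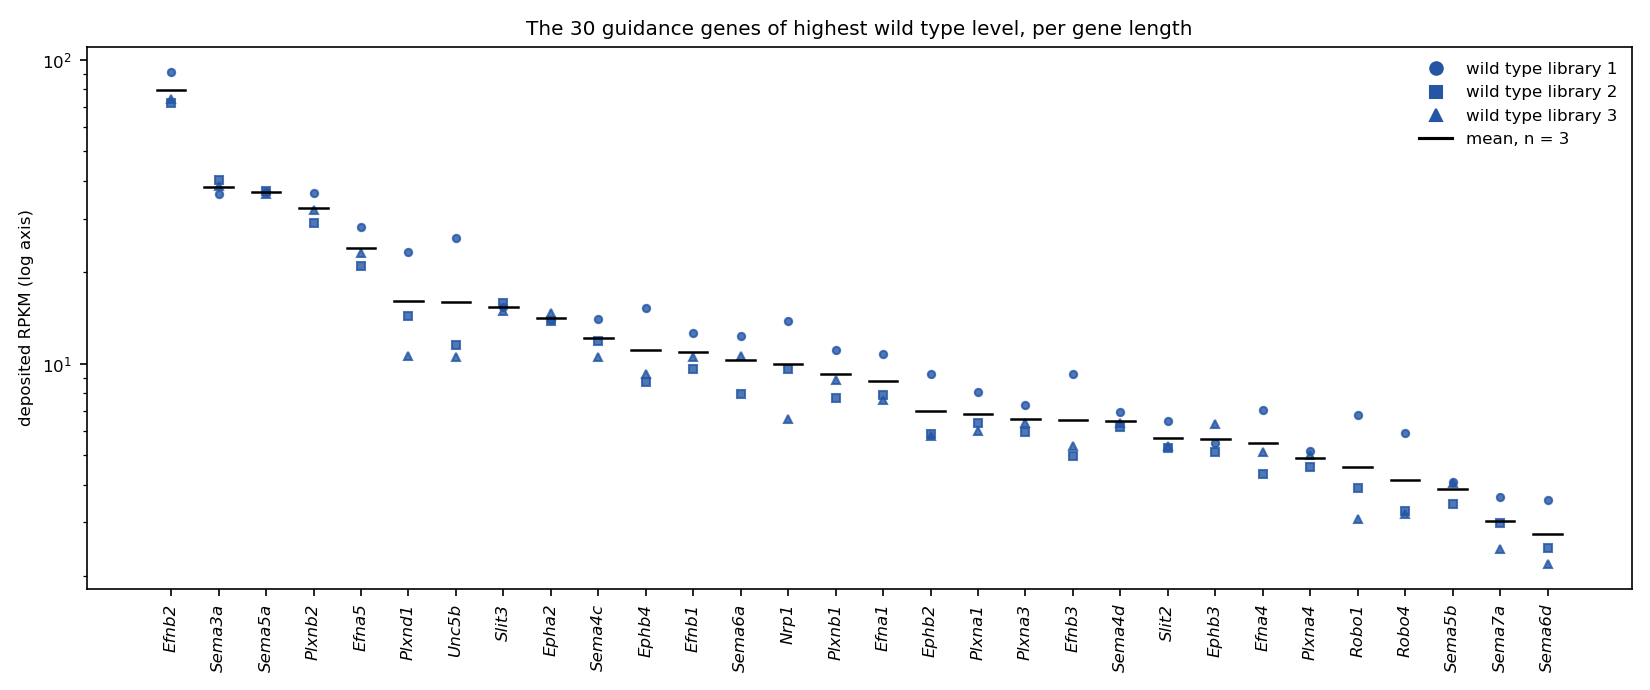
Deposited RPKM of the 30 guidance genes of highest wild type level, on a log axis, in each of the 3 wild type libraries (circle, square and triangle for libraries 1, 2 and 3), with the mean as a line. Efnb2 stands highest at 79.5 RPKM, and library 1 is the highest of the 3 for every gene shown except Sema3a, Sema5a, Slit3, Epha2 and Ephb3.

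Ephrin A genes rose as a whole family. Ephrin A proteins are anchored in the membrane by a lipid and bind mainly EphA receptors. Efna5 (chromosome 17, 62604184 to 62881317, minus strand, coordinates here and below on GRCm38) had 115, 100 and 112 CPM in the wild type and 204, 295 and 257 CPM in the knockout libraries. All knockout libraries lay far above all wild type libraries, a rise of 2.31-fold (log2 change 1.21, SE 0.141, edgeR adjusted p = 0.000608). Per length, Efna5 had the highest wild type level of the ephrin A genes. Efna2 (chromosome 10, 80179482 to 80190010, plus strand) had 7.29, 5.50 and 5.12 CPM in the wild type and 13.3, 12.5 and 11.3 CPM in the knockout. The groups of Efna2 did not overlap, and the rise was 2.08-fold (log2 change 1.05, SE 0.182, edgeR adjusted p = 0.00368). Efna4 rose from 9.83 ± 1.60 to 18.4 ± 1.79 CPM (SD, n = 3 each, log2 change 0.91) and Efna1 from 17.9 ± 1.87 to 24.2 ± 3.65 CPM (log2 change 0.43). The call of Efna1, at an edgeR adjusted p of 0.0492, lay at the threshold and was lost in 7 of the 17 alternative settings.

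Efna3 (chromosome 3, 89313899 to 89322965, minus strand) was the rarest ephrin. It had 27, 11 and 16 counts in the wild type and 71, 25 and 32 in the knockout libraries, which is 1.304, 0.630 and 0.921 CPM against 2.09, 2.09 and 3.23 CPM. Knockout library 3 was the highest, and the groups did not overlap. The rise of 2.52-fold (log2 change 1.33, SE 0.350, edgeR adjusted p = 0.0214) was no longer called without knockout library 3 (adjusted p = 0.0545) or without library 2 (0.0872) or 3 (0.0738) of the wild type. The libraries keep no strand, and 14.1% of the exon bases of Efna3 are shared with Gm15998 and 10.5% of those of Efna4 with 4731419I09Rik, both on the opposite strand.

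Ephrin B genes encode transmembrane ligands of EphB receptors. Efnb1 rose from 42.4 ± 2.69 to 60.0 ± 3.54 CPM (SD, n = 3 each, log2 change 0.50) and Efnb3 from 23.0 ± 5.99 to 36.2 ± 4.95 CPM (log2 change 0.65). Efnb3 was not called if knockout library 1 or 3 or a wild type library other than library 1 was left out. Efnb2, described above, was not called.

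The Eph receptors did not all move one way. Epha2 (chromosome 4, 141301240 to 141329384, plus strand), the receptor tied to fibre cell packing, had the highest mean wild type level of the Eph genes, at 14.2 ± 0.484 RPKM (SD, n = 3), though its range lay within that of Ephb4. It had 66.2, 77.0 and 82.5 CPM in the wild type and 54.5, 59.1 and 57.6 CPM in the knockout libraries. All knockout libraries lay below all wild type libraries, by a small margin, and Epha2 fell 1.32-fold (log2 change -0.40, SE 0.104, edgeR adjusted p = 0.0208). Dropping library 2 (adjusted p = 0.0752) or 3 (0.0834) of the wild type ended the call, and so did scaling by library totals, where the log2 change was -0.04 (adjusted p = 0.791). No other Eph gene was called falling by edgeR, DESeq2 or limma-voom, nor at an unadjusted p below 0.05 by edgeR.

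The EphA genes that rose had far lower levels. Epha1 (chromosome 6, 42358487 to 42373268, minus strand) had 19, 7 and 13 counts in the wild type and 66, 15 and 32 in the knockout libraries, or 0.918, 0.401 and 0.748 CPM against 1.94, 1.25 and 3.23 CPM. Its rise was 3.01-fold (log2 change 1.59, SE 0.438, edgeR adjusted p = 0.0256) with no overlap. The call was lost without knockout library 3 (adjusted p = 0.0618) or without library 2 (0.102) or 3 (0.0738) of the wild type, and 6.01% of its exon bases are shared with Zyx on the opposite strand. Epha4 (chromosome 1, 77367185 to 77515088, minus strand), which binds ephrins of both types, had 9.71, 6.07 and 6.68 CPM in the wild type and 13.9, 12.2 and 25.4 CPM in the knockout. Knockout library 3 again stood above the other libraries. The rise of Epha4 was 2.27-fold (log2 change 1.18, SE 0.302, edgeR adjusted p = 0.0193), and it was not called without wild type library 2 (0.0862) or wild type library 3 (0.0730).

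Epha10 (chromosome 4, 124880899 to 124917800, plus strand) encodes a receptor that lacks kinase activity. It had 6.08, 4.58 and 4.61 CPM in the wild type and 12.3, 11.4 and 8.57 CPM in the knockout, a rise of 2.13-fold with no overlap (log2 change 1.09, SE 0.204, edgeR adjusted p = 0.00525). Epha5 rose from 30.3, 30.5 and 28.7 CPM in the wild type to 48.4, 47.5 and 75.0 CPM in the knockout (log2 change 0.93). The other EphA genes were not called: Epha6 had a log2 change of 0.89, Epha7 of 0.49, Epha3 of 0.13 and Epha8 of -0.19. Epha8 was the rarest gene kept, with 5 to 22 counts in a library.

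Of the EphB genes, Ephb4 and Ephb1 rose. Ephb4, the receptor of Efnb2 that marks veins, had 72.0, 48.1 and 51.2 CPM in the wild type and 87.8, 94.9 and 111 CPM in the knockout (log2 change 0.77), and Ephb1 rose from 3.89 ± 0.273 to 6.26 ± 0.806 CPM (SD, n = 3 each, log2 change 0.67). Ephb1 lost its call in 6 of the 17 alternative settings, among them each that dropped library 2 or 3 of either group. Ephb6, a receptor without kinase activity, had a log2 change of 0.54 with no overlap and an edgeR adjusted p of 0.0526. It was past the threshold in 6 of the 17 alternative settings, among them limma-voom (0.0453). Ephb2 and Ephb3 had changes of 0.28 and -0.31 and overlapping groups. Ephb3 was past the threshold in the falling direction without knockout library 3 (log2 change -0.53, adjusted p = 0.0345).

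Among semaphorins, 5 of 14 rose, where 15.9% of all features rose, and none was called falling by edgeR, DESeq2 or limma-voom. At an unadjusted p below 0.05 none fell by edgeR either. Sema6a (chromosome 18, 47235598 to 47368870, minus strand) encodes a transmembrane semaphorin that binds plexins of class A. It had 110, 82.7 and 112 CPM in the wild type and 231, 260 and 263 CPM in the knockout libraries. The groups were well apart, and the rise was 2.47-fold (log2 change 1.31, SE 0.133, edgeR adjusted p = 0.000312). The class A plexins were not called: Plxna1 to Plxna4 had log2 changes of -0.18, 0.28, -0.11 and 0.15, each with overlapping groups.

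Sema3c (chromosome 5, 17574281 to 17730268, plus strand), a secreted cue with a role in heart and vessel development, had the largest change of the set, with a wide spread. It had 3.96, 1.95 and 6.45 CPM in the wild type and 14.1, 6.68 and 31.6 CPM in the knockout libraries. The lowest knockout library lay just above the highest wild type library, and knockout library 3 far above all others. Sema3c rose 4.19-fold (log2 change 2.07, SE 0.573, edgeR adjusted p = 0.0261). Without knockout library 3 its log2 change was 1.37 and not called (adjusted p = 0.0651), and the call was also lost without wild type library 1 (0.0604) or wild type library 2 (0.0990).

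The other rising semaphorins were Sema3b, from 3.06 ± 0.448 to 6.37 ± 2.35 CPM (SD, n = 3 each, log2 change 1.04), Sema4b, from 15.2 ± 1.41 to 23.3 ± 0.701 CPM (log2 change 0.61), and Sema4d, from 47.4 ± 2.00 to 64.6 ± 4.03 CPM (log2 change 0.45). Sema4d is a ligand of Plxnb1, which rose too. Sema3b lost its call when any 1 of the wild type libraries was left out. The 9 semaphorins that edgeR did not call had log2 changes between -0.22 (Sema5b) and 0.56 (Sema6d). Sema3d, Sema4a, Sema4c and Sema7a among them had all knockout libraries above all wild type libraries. In Sema5a and Sema6d knockout library 1 was the lowest of its group, at 449 against 700 and 683 CPM and at 32.3 against 53.9 and 57.4 CPM. Without it both were past the threshold (log2 changes 0.62 and 0.78, edgeR adjusted p = 0.00850 and 0.00874), and DESeq2 called both with all libraries (0.0444 and 0.0388).

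Of the 5 semaphorins that the letters leave out, Sema3f and Sema3e rose. Sema3f (chromosome 9, 107681500 to 107710475, minus strand), a secreted repellent that acts through Nrp2, had 24.5, 16.3 and 19.1 CPM in the wild type and 60.1, 55.9 and 69.6 CPM in the knockout libraries. The groups were far apart, and the rise was 3.09-fold (log2 change 1.63, SE 0.161, edgeR adjusted p = 0.000281), with the call held in all 17 alternative settings. Sema3e, the ligand of Plxnd1, rose from 1.55 ± 0.476 to 3.85 ± 0.729 CPM (SD, n = 3 each, log2 change 1.28, SE 0.293, edgeR adjusted p = 0.0128), and dropping wild type library 2 (0.0613) or 3 (0.0552) ended the call. Sema3g, Sema4f and Sema4g were not called, with log2 changes of 0.20, 0.30 and 0.27. With these 5 genes added, 28 of 67 rose and 3 fell (15.9% and 16.8% of all features).

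Plexins are the main semaphorin receptors. Plxnc1 (chromosome 10, 94790866 to 94944835, minus strand), the receptor of Sema7a, had 18.1, 12.03 and 13.53 CPM in the wild type and 50.7, 41.0 and 54.6 CPM in the knockout libraries. The groups were far apart, a rise of 3.34-fold (log2 change 1.74, SE 0.175, edgeR adjusted p = 0.000309). Its ligand gene Sema7a was not called, at 11.2 ± 1.34 and 15.0 ± 2.32 CPM (SD, n = 3 each). Plxnb2, the most abundant plexin, rose from 262 ± 14.2 to 398 ± 55.3 CPM (log2 change 0.60) and Plxnb1 from 92.7 ± 9.84 to 138 ± 15.8 CPM (log2 change 0.57). Plxnb2 was just outside the threshold without wild type library 2 (adjusted p = 0.0519).

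Several receptors known from blood vessels varied within the groups. Plxnd1 had 171, 123 and 91.2 CPM in the wild type and 134, 227 and 227 CPM in the knockout libraries, Unc5b had 155, 80.0 and 73.8 against 129, 157 and 147 CPM, and Robo4 had 24.7, 16.0 and 15.8 against 21.7, 20.9 and 23.5 CPM. None of the 3 was called by edgeR, where Plxnd1 had an unadjusted p of 0.0455, and DESeq2 called Plxnd1 (adjusted p = 0.0349). In each, wild type library 1 was the highest of its group. This was not particular to these receptors. Library 1 was also the highest of the wild type for many other genes of the set, among them every ephrin A gene, Plxnb1, Plxnc1 and Reln. It was not the highest for Epha2, Slit3, Sema3a or Sema5a. Its share of crystallin counts was the lowest of the wild type, at 13.2% against 21.5% and 22.7% in libraries 2 and 3. The summed level of 12 endothelial markers was likewise highest in library 1 of the wild type, with 540, 393 and 300 CPM in the wild type and 479, 605 and 621 CPM in the knockout. Of these markers 1 rose, where 15.9% of all features rose. No defining marker was at 0, and the part of these markers in the receptor values was not tested. Without wild type library 1, Unc5b was past the threshold (log2 change 0.87, edgeR adjusted p = 0.00155), and so were Plxnd1 (0.83, 0.0364) and Robo4 (0.43, 0.0342).

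Neuropilins are coreceptors of class 3 semaphorins. Nrp1 had 83.1, 67.5 and 46.4 CPM in the wild type and 67.4, 91.1 and 97.8 CPM in the knockout, with overlapping groups (log2 change 0.37). Nrp2 had 32.5, 17.9 and 9.96 CPM in the wild type and 22.6, 29.3 and 71.3 CPM in the knockout. Its log2 change of 1.00 (SE 0.497, edgeR adjusted p = 0.149) was not called, and it was 0.36 without knockout library 3. The unadjusted edgeR p was 0.117 for Nrp1 and 0.0759 for Nrp2, and DESeq2 called neither.

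**Figure D3:**
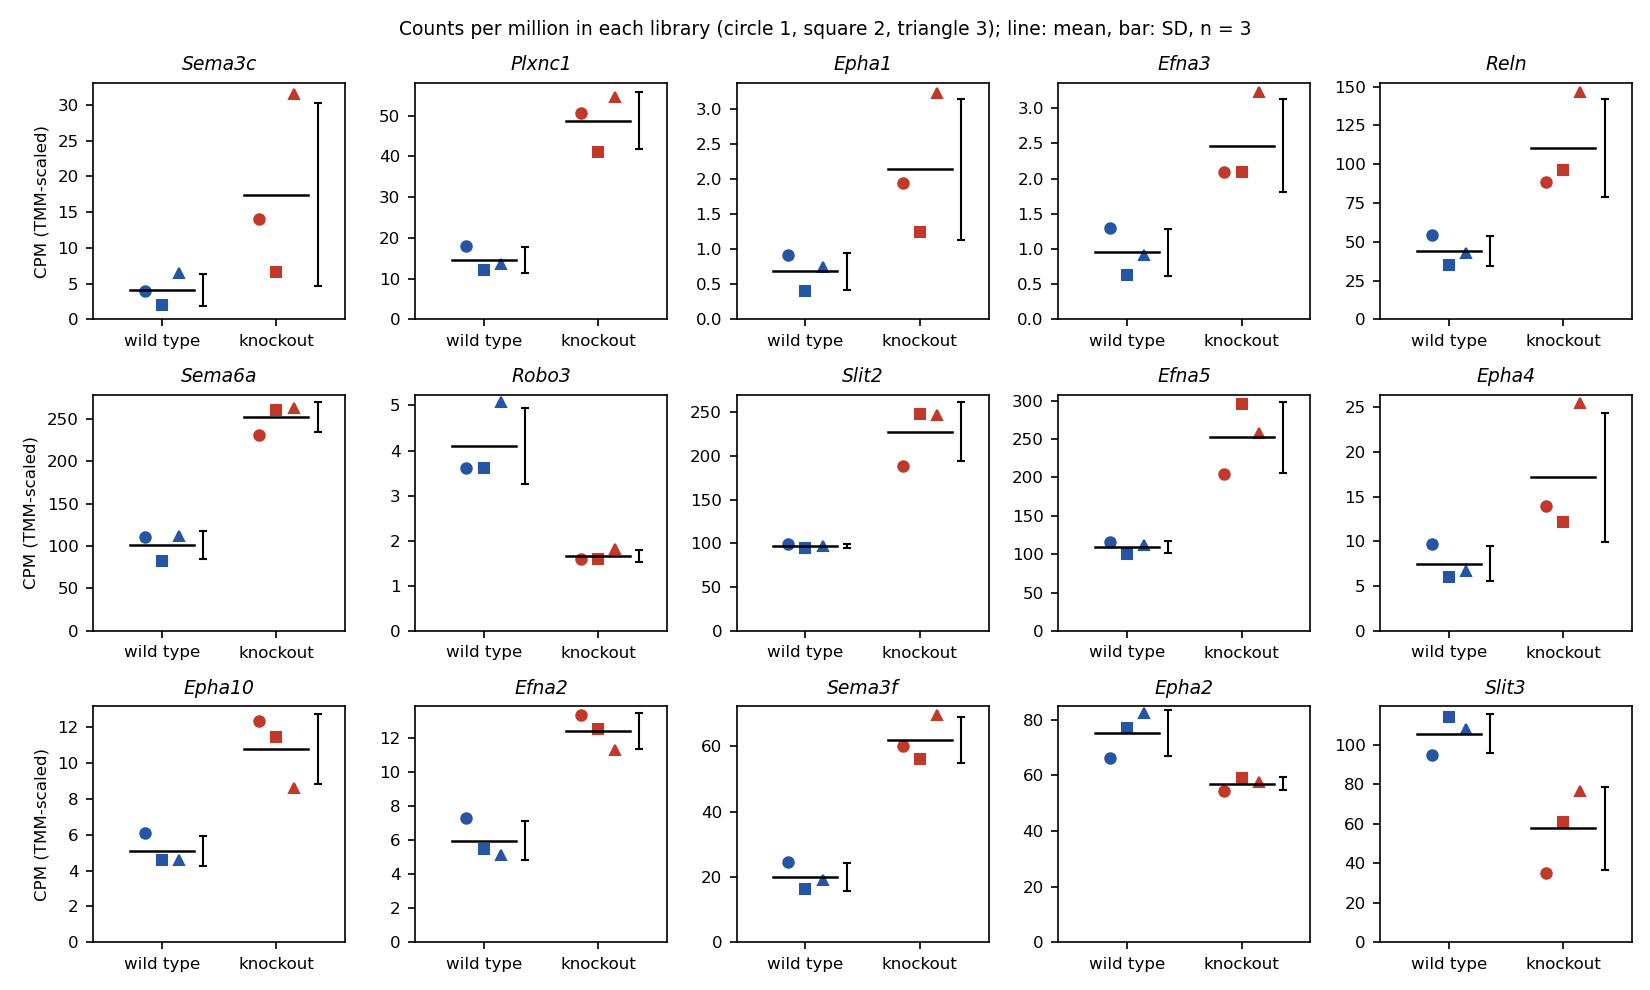
CPM in each library, on a linear axis from 0, for the 12 called genes of largest change and for Sema3f, Epha2 and Slit3; circles, squares and triangles are libraries 1, 2 and 3, the line is the mean and the bar the SD (n = 3). Groups do not overlap in any panel, and knockout library 3 stands above its group in several panels, among them Sema3c, Epha1, Efna3, Epha4 and Reln.

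Slits are secreted ligands of the robos. Slit2 (chromosome 5, 47983138 to 48307733, plus strand) had 99.4, 94.4 and 96.9 CPM in the wild type and 188, 248 and 246 CPM in the knockout libraries. The wild type values were nearly alike and all knockout values were higher, a rise of 2.35-fold (log2 change 1.23, SE 0.122, edgeR adjusted p = 0.000281). Slit3 (chromosome 11, 35121224 to 35708507, plus strand) went the other way, with 94.6, 114 and 108 CPM in the wild type and 35.2, 61.0 and 76.8 CPM in the knockout. It fell 1.85-fold with no overlap (log2 change -0.89, SE 0.243, edgeR adjusted p = 0.0251). The call of Slit3 was lost without knockout library 2 (adjusted p = 0.0537) or without library 2 (0.0854) or 3 (0.0680) of the wild type and with scaling by library totals (0.0505). In the wild type Slit2 and Slit3 had similar CPM, but per length Slit3 was higher, at 15.3 ± 0.494 RPKM against 5.71 ± 0.672 RPKM for Slit2. Slit1 was not called, at 4.22 ± 0.932 and 5.57 ± 1.62 CPM (SD, n = 3 each).

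Robo3 (chromosome 9, 37415669 to 37433246, minus strand), a divergent robo that in neurons modulates the response to slits, had the largest fall of the set. It had 75, 63 and 88 counts in the wild type and 54, 19 and 18 in the knockout libraries, or 3.62, 3.61 and 5.07 CPM against 1.59, 1.59 and 1.82 CPM. The fall was 2.47-fold with no overlap (log2 change -1.31, SE 0.244, edgeR adjusted p = 0.00517). Robo2 rose from 16.4 ± 2.57 to 27.0 ± 5.69 CPM (SD, n = 3 each, log2 change 0.71) and was not called if either wild type library 2 or library 3 was dropped. Robo1 and Robo4 were not called, with log2 changes of 0.69 and 0.22.

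Netrins are secreted cues related to laminins. Ntn4 rose from 3.90 ± 1.03 to 6.91 ± 0.970 CPM (SD, n = 3 each, log2 change 0.82), and it was not called if knockout library 1 or 3 or a wild type library other than library 1 was left out. Ntn1 had 2.80, 1.95 and 3.86 CPM in the wild type and 3.65, 3.34 and 18.3 CPM in the knockout libraries. Knockout library 3 alone stood apart, so that the log2 change of 1.50 (SE 0.645) was not called (edgeR adjusted p = 0.105) and was 0.29 without that library. With no filter on low counts Ntn1 was past the threshold (adjusted p = 0.0357). Ntn3 had a log2 change of 0.80 with no overlap and was not called by edgeR (adjusted p = 0.0832), but was by DESeq2 (0.0494). Of the netrin receptors, Unc5c rose from 16.2 ± 3.58 to 30.9 ± 6.06 CPM (log2 change 0.93), and Dcc, Unc5a and Unc5b were not called, with log2 changes of 0.34, -0.04 and 0.49.

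Reelin is a large secreted glycoprotein that orders neurons in the brain. Reln (chromosome 5, 21884454 to 22344702, minus strand) had 54.6, 35.2 and 42.7 CPM in the wild type and 88.4, 96.2 and 147 CPM in the knockout libraries. It rose 2.49-fold with no overlap (log2 change 1.32, SE 0.220, edgeR adjusted p = 0.00321). The genes that receive the reelin signal did not rise: of 6 listed, 4 fell and 2 were not called, where 16.8% of all features fell. Vldlr, a reelin receptor, had 133, 197 and 190 CPM in the wild type and 57.9, 70.1 and 66.3 CPM in the knockout, a fall of 2.68-fold (log2 change -1.42, SE 0.158, edgeR adjusted p = 0.000482). The other genes that fell, named after their values were seen, were the receptor Lrp8 (log2 change -0.53), the adaptor Dab1 (-0.53) and the adaptor Crk (-0.36). Crkl and Pafah1b1 had log2 changes of -0.20 and -0.15.

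Upstream sequence is shown for the rising genes Plxnc1, Efna5 and Reln and for the falling gene Epha2, as examples picked from the set. The windows are the 250 bases before the RefSeq start on GRCm38.p6, printed 5′ to 3′ on the strand of the gene. Capitals mark the GC box GGGCGG, the core site of Sp factors, on either strand, so that CCGCCC is its reverse complement. The genes, with window and strand, were Plxnc1 (chr10:94944846-94945095, minus), Efna5 (chr17:62881318-62881567, minus), Reln (chr5:22344706-22344955, minus) and Epha2 (chr4:141300971-141301220, plus).
Plxnc1: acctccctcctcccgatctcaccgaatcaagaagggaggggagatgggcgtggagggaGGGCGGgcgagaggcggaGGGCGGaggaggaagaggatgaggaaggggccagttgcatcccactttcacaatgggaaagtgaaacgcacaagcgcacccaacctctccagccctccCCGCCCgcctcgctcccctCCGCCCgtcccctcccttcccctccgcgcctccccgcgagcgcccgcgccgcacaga
Efna5: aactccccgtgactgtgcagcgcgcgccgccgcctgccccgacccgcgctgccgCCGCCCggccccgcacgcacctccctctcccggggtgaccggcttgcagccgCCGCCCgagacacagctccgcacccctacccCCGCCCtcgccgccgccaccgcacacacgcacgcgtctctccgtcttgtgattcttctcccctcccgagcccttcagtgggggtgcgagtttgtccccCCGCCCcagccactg
Reln: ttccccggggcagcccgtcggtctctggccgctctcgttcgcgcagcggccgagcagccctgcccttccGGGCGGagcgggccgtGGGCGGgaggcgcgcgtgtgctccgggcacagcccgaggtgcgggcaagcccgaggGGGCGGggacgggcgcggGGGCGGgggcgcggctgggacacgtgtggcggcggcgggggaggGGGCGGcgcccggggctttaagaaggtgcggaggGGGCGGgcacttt
Epha2: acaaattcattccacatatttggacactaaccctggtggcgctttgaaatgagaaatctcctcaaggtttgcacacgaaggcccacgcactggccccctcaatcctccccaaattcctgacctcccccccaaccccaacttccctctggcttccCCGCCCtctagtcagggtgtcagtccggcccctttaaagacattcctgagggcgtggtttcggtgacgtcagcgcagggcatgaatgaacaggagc
The GC box occurred 4 times in the Plxnc1 window, 4 times in that of Efna5, 6 times in that of Reln and 1 time in that of Epha2. The GC content was 68.8%, 74.8%, 80% and 55.6%. Of the 54 guidance genes with an entry, 75.93% held at least 1 GC box, against 59.55% of the windows of 10595 tested genes and 32.96% of all 27025 windows. The share was 73.91% among the genes that rose, 75% among those not called and 100% among the 3 that fell. Whether the number of boxes goes with the direction of change was not tested. The Maf site core TGCTGA and the SOX core AACAAT, both searched on both strands, had no match in these 4 windows, and over all tested genes they were in 12.78% and 5.05% of windows. Among the guidance genes the Maf core was in 4 of 23 windows of genes that rose (17.39%) and 1 of 28 of those not called (3.571%), and the SOX core in 1 (4.348%) and none.

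Genes that act with these cues and receptors, taken from lists of their known partners, moved in both directions. Of 80 partner genes tested, 23 rose, 19 fell and 38 were not called, which is 52.5% called, against 32.6% of all features (15.9% rising and 16.8% falling). Leaving out the 5 semaphorins already described, 21 of 75 rose and 19 fell. The median log2 change of these 75 was 0.11. Without wild type library 2 there were 21 called partners (15.5% of all features called), and without wild type library 3 there were 23 (17%).

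The netrin, repulsive guidance and draxin genes rose in 8 of 13 cases, where 15.9% of all features rose, and none fell at an unadjusted p below 0.05 by edgeR. Rgma, a membrane ligand of neogenin, had 10.04, 5.90 and 7.54 CPM in the wild type and 20.4, 19.7 and 29.7 CPM in the knockout. It rose 2.94-fold (log2 change 1.56, SE 0.234, edgeR adjusted p = 0.00197). Ntng1, a netrin relative held in the membrane, rose from 0.755 ± 0.396 to 2.54 ± 1.65 CPM (SD, n = 3 each, log2 change 1.69, edgeR adjusted p = 0.0419). It was not called if knockout library 2 or 3 or a wild type library other than library 3 was left out, nor by limma-voom (0.0583). The log2 change of Ntng1 was 1.07 without knockout library 3, and 0.79 without that library and wild type library 1. Dscaml1, a relative of the netrin receptor Dscam, rose from 0.829 ± 0.0842 to 2.08 ± 0.489 CPM (log2 change 1.34, edgeR adjusted p = 0.0111), and dropping wild type library 3 ended that call (0.0518).

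Among the semaphorin and plexin partners 4 of 23 rose and 6 fell (17.4% and 26.1%, against 15.9% and 16.8% of all features). The rising share was thus near that of all features. Nrcam, a cell adhesion protein that forms a receptor complex with neuropilins, had the largest fall of all partners. It had 349, 552 and 492 CPM in the wild type and 45.1, 60.9 and 83.3 CPM in the knockout libraries, 7.40-fold less (log2 change -2.89, SE 0.251, edgeR adjusted p = 0.000181). Mical2, an oxidase of actin, fell from 10.6 ± 4.91 to 3.98 ± 1.29 CPM (SD, n = 3 each, log2 change -1.45) and was not called if knockout library 1 or 2 or a wild type library other than library 1 was left out. Gipc1, an adaptor that binds neuropilin 1, fell from 164 ± 21.2 to 78.1 ± 6.19 CPM (log2 change -1.07). Met, the receptor of hepatocyte growth factor, which associates with B plexins, rose from 4.76 ± 1.23 to 10.4 ± 2.67 CPM (log2 change 1.12). The remaining calls of this list, named after their values were seen, were rises of Dpysl2, Dpysl3 and Mical1 and falls of Itgb1, Rras and Rac1.

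In the Eph and ephrin partners 6 of 20 rose and 6 fell (30% each, against 15.9% and 16.8% of all features). Ngef, a guanine nucleotide exchange factor bound by EphA4, had 41.9, 52.1 and 59.4 CPM in the wild type and 15.9, 17.0 and 14.3 CPM in the knockout, a fall of 3.24-fold (log2 change -1.70, SE 0.147, edgeR adjusted p = 0.000181). Chn2, which encodes a GTPase activating protein for Rac, rose from 4.97, 5.78 and 5.18 CPM to 11.9, 12.4 and 11.7 CPM (log2 change 1.17). Of the Slit and Robo partners 3 of 13 rose and 3 fell (23.1% each, against the same shares of all features). These were named after their values were seen: Srgap2, Srgap3 and Gpc1 rose, and Arhgap39, Flrt2 and Sdc1 fell.

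Markers of other tissues around the lens also moved between the libraries. For comparison with the counts called, 15.9% of all features rose and 16.8% fell. The 12 periocular mesenchyme markers, 5 of 11 tested rising, summed to 1223, 820 and 3653 CPM in knockout libraries 1, 2 and 3 and to 656, 318 and 598 CPM in wild type libraries 1, 2 and 3. Pigment cell markers, 6 of 7 tested rising, summed to 367, 268 and 740 CPM and to 193, 82.2 and 170 CPM. Surface ectoderm markers, 6 of 8 rising, summed to 80.2, 46.3 and 150 CPM and to 38.1, 24.1 and 35.5 CPM. Knockout library 3 thus held the highest sum of all 3 lists, as it held the highest level of Sema3c, Nrp2 and Ntn1. Wild type library 2 was the lowest in each list, and it was also the lowest library for Sema3c and Ntn1.

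Neural retina markers, 5 of 11 tested rising, summed to 977, 610 and 651 CPM in the knockout and to 552, 404 and 428 CPM in the wild type. Knockout library 1 was the highest there, and every knockout sum lay above every wild type sum. Efna5, Slit2 and Sema6a had their lowest knockout value in library 1, which does not bear on the difference between the groups. Erythroid genes, 3 of 8 rising, ranged from 1402 to 2237 CPM in the knockout and from 777 to 2591 CPM in the wild type. For all features the shares were 15.9% rising and 16.8% falling. Neuron markers, 1 of 14 rising and 2 falling, ranged from 175 to 206 and from 158 to 240 CPM, and macrophage markers, each of the 9 at an edgeR adjusted p of 0.127 or more, from 69.5 to 99.7 and from 41.4 to 87.2 CPM. The defining markers Foxc2 of the mesenchyme and Sox2 of the retina were listed at 0. What part these tissues had in the changes of the guidance genes was not tested. Without knockout library 3 the changes of Sema6a, Sema3f, Plxnc1, Slit2, Efna5 and Reln were still called, that of Reln at a log2 change of 1.06. Those of Sema3c, Epha1, Efna3, Efnb3, Ephb1 and Ntn4 were not called in that setting. In the mesenchyme, pigment cell, surface ectoderm and retina sums, knockout libraries 1 and 2 also lay above every wild type library. Leaving out knockout library 3 therefore does not test the part of these tissues.

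**Figure D4:**
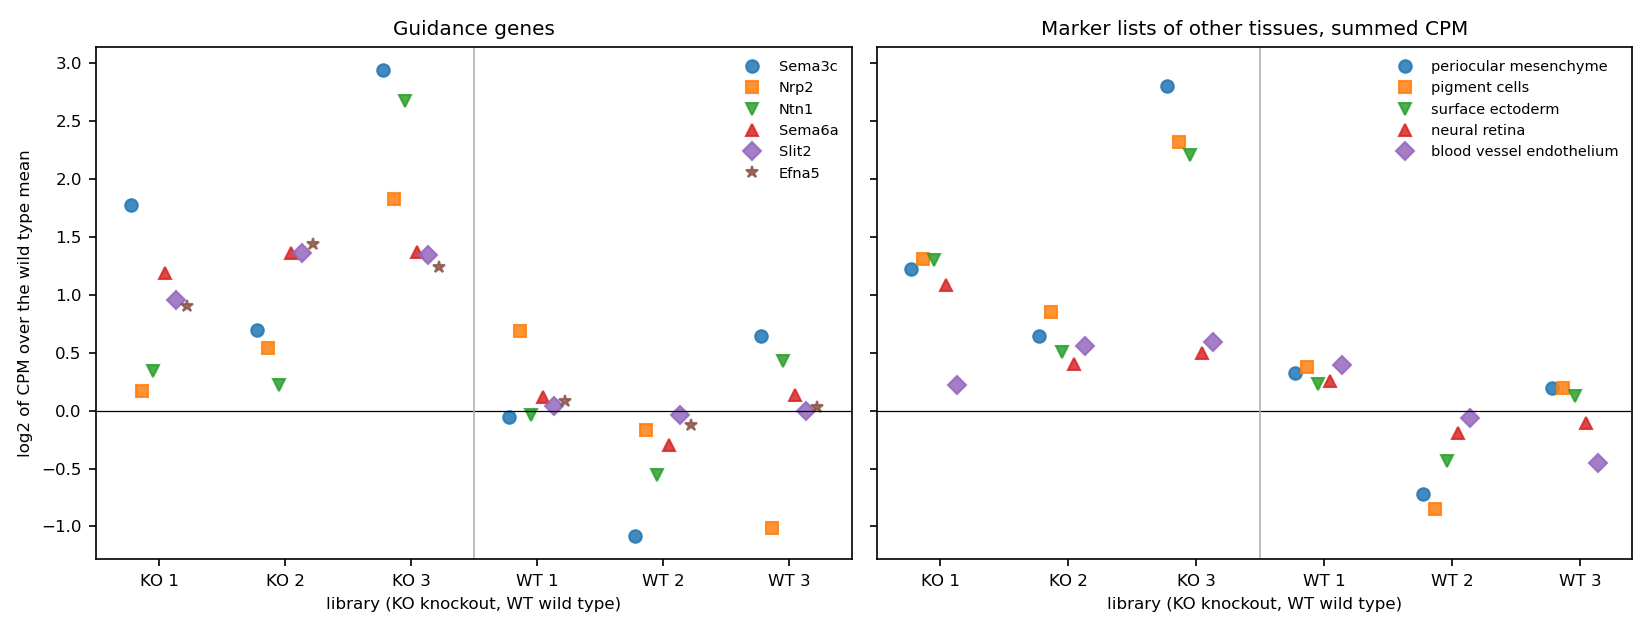
Log2 of CPM over the wild type mean in each library (KO knockout, WT wild type), for 6 guidance genes on the left and for the summed CPM of 5 marker lists of other tissues on the right. Sema3c, Nrp2 and Ntn1 are highest in knockout library 3, as are the periocular mesenchyme, pigment cell and surface ectoderm sums, while Sema6a, Slit2 and Efna5 are similar in the 3 knockout libraries.

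At the lower end, 3 matched genes were under the count. Ntn5 had no count in any library, which allows up to 3 counts per library. Plxnb3 had 10, 10 and 0 counts in the knockout against 6, 0 and 1 in the wild type. Unc5d had 14, 8 and 6 counts against 10, 2 and 5, and its log2 change of 0.80 (SE 0.534) was not called. Just inside stood Epha8, with 14, 5 and 17 counts against 22, 10 and 16, and Epha1. Unc50, the gene matched by its letters alone, had 40.6 ± 0.784 CPM in the wild type and 41.1 ± 6.56 CPM in the knockout (SD, n = 3 each, log2 change 0.02).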

How the data were processed

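Each library's table covered 41128 features in 3 units, per the file headers: raw count, CPM and RPKM. The deposited count is a whole number per feature, the deposited CPM is that count relative to the library total alone, within 1e-06, and the RPKM made by the authors also divides by a length that is not listed. The submitters' processing notes name GRCm38 and edgeR. No aligner, counting program or annotation release is given in the sources used here. Poly-A selected, unstranded libraries were read as single ends of 51 bp, per the labels' protocols.

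In 26 features count and CPM disagreed, and these were left out (0.0424% to 0.0636% of a library's counts). Counts were filtered with filterByExpr (minimum count 10), scaled by TMM and tested by the quasi-likelihood test of edgeR 4.0.16 in R 4.3.3, with Benjamini-Hochberg adjustment over all 14271 features and a threshold of 0.05. The standard error is the log2 change divided by the square root of F. CPM in the text is scaled by TMM, on which 3 counts equal 0.0882 to 0.303 CPM. RPKM was used only to set genes side by side within the wild type. Alternatives were DESeq2 1.42.0, limma-voom 3.58.1, 4 other scalings, 3 other filters, a replicate block and leaving out libraries. The test was checked on simulated counts. Full statistics are given for the 12 called genes of largest change and for Sema3f, Sema6a and Epha2, and the 5 rising and 5 falling partners of largest change are named. The genes and lists were chosen with earlier results of these data known. Coordinates and shared exons come from the GENCODE mouse annotation of GRCm38, matched by Ensembl identifier for 64 of the 65 genes, and promoters from RefSeq, with entries for 54 of the 62 genes.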

Additional observations from a re-analysis of the deposited data

How the results depend on the processing

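The alternatives were 4 other scalings, DESeq2, limma-voom, 3 other filters, a replicate block and leaving out each library, with 1 more chosen after seeing the data. With library totals alone, 47 of the 62 genes were called, 46 rising and 1 falling (44.6%, 38% and 6.62% of all features), and Prox1 had a log2 change of -0.34 (adjusted p = 0.0532). In that setting 85.2% of all calls rose, against 48.6% in the main result. A 2-fold minimum left 13 genes, and 11% of all features. Leaving out 1 library at a time gave 16 to 33 called genes, 15 to 30 rising and 1 to 4 falling, and 21 to 44 partners. The share of all features called moved too, from 15.5% to 36.4%, with 5.72% to 16.4% rising and 9.8% to 20% falling. The cause was not tested. No called gene changed sign in any setting, and 11 genes that were not called did.

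Library totals turned the log2 change to 0.15 for Epha8, 0.048 for Ephb3, 0.15 for Plxna1, 0.24 for Plxna3, 0.13 for Sema5b, 0.30 for Sema6b and 0.30 for Unc5a. Upper quartile scaling gave 0.013 for Sema6b and 0.011 for Unc5a, and limma-voom 0.046 for Sema6b. Without knockout library 3 and wild type library 1 it was -0.17 for Plxna4, 0.41 for Sema6b and 0.080 for Unc5a. Leaving out 1 library, the ranges that crossed 0 were -0.10 to 0.27 for Epha3, -1.04 to 0.27 for Epha8, -0.45 to 0.092 for Plxna1, -0.027 to 0.53 for Plxna2, -0.11 to 0.43 for Plxna4, -0.22 to 0.28 for Sema6b, -0.025 to 0.42 for Sema3g, -0.078 to 0.14 for Unc50 and -0.19 to 0.14 for Unc5a.

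With the replicate block, which assumes a pairing by the labels' numbers, 28 genes were called, 25 rising and 3 falling, and 39 partners. Of all features 29.3% were called in that setting, 14.2% rising and 15.1% falling. Efna1 and Ephb1 lost their calls and Sema5a gained one. Same-numbered libraries had correlations of deviations of -0.0276, 0.254 and 0.111, and differently numbered ones had -0.224 to 0.0878. These values do not settle whether the numbers pair the libraries, and the main fit was left unpaired. Epha1, Efna3, Epha6, Epha8, Sema4a and Unc5a had under 100 counts in every library, and so had Robo3, which kept its call. What depth limits was not tested.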
